A study of Rattus norvegicus with 77 samples.

Results

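Epididymal secretory proteins are made by the epithelium of the epididymis and released into the fluid in which sperm mature. They were described here through 10 named genes: Crisp1, Crisp4, Lcn5, Lcn8, Rnase9, Rnase10, Adam7, Gpx5, Cst8 and Cst11, chosen as products of the epididymal epithelium other than defensins. Each gene was read from the probe set whose only gene symbol in the platform annotation was that of the gene, or from the brightest where there were several. Of the 10 names, 9 had such a probe set, 1 each, among 29214 probe sets, of which 15310 carried 1 gene symbol, 323 several and 13581 none. Crisp4 had none: RefSeq gives Crisp4 as an older symbol of the gene that the annotation calls Crisp1, so that this gene appears once, under the name Crisp1.

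RNA of sperm from the cauda, the last segment of the epididymis, was measured on 77 Affymetrix arrays, 1 for each adult male Fischer 344 rat. The HD rats (n = 19) had received 0.33% 2,5-hexanedione (HD), a toxicant that cross-links the microtubules of Sertoli cells, in their drinking water for 3 months, against plain water in the water rats (n = 20), and both were killed at the end of exposure. The HD-recovery rats (n = 20) had the same exposure and the water-recovery rats (n = 18) the same water, and both were then left untreated for 3 further months. All pellets had passed through a somatic cell lysis buffer, and the values describe the RNA of sperm and of whatever other cells remained.

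Sperm leaving the testis cannot yet fertilise, and acquire this ability while they pass through the caput, corpus and cauda of the epididymis. The epithelium changes its products along the duct under the control of androgens and of factors that arrive in the testicular fluid, and mature sperm are thought to transcribe little or nothing themselves. The proteins studied here are known mostly from the proximal duct: in the mouse, Lcn8 and Rnase10 mark its initial segment, and Gpx5, Adam7 and Lcn5 the caput and its neighbourhood.

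The arrays had medians between 6.51 and 6.78 on the deposited log2 scale. Of the members, Cst11, Rnase9 and Lcn8 had means over all arrays (5.68, 6.41 and 6.46) below every array median, and Rnase10 (6.69) lay among the medians. At such levels a value may hold little signal of the gene, which was not tested. The mean level of 14 sperm and spermatid markers, such as protamines and tail proteins, was 9.47 to 11.57 in HD arrays, 9.39 to 11.05 in water arrays, 9.59 to 10.90 in HD-recovery arrays and 9.66 to 10.62 in water-recovery arrays. Some arrays stood apart by a low correlation with the rest of their group: 4 of the HD group (replicates 3, 4, 5 and 14), 1 of the water group (20), 3 of the HD-recovery group (2, 9 and 16) and 2 of the water-recovery group (12 and 15). All were kept, and changes of call without them are given beside the gene or with the limits. No replicate was a copy of another. In bulk RNA of this kind, fewer cells of a type and less RNA per cell cannot be told apart.

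None of the 9 genes differed between HD and water arrays at q under 0.05 (limma, Storey's q over all probe sets), where 0.472% of all probe sets did. None differed between HD-recovery and water-recovery arrays, where 0% did. What set the genes apart from one another was the spread between arrays: a single HD-recovery array held Gpx5, Rnase10, Lcn5 and Lcn8 at 10.8 to 31.5 times the median of the other arrays of its group, while Rnase9 was within their range.

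**Figure D1:**
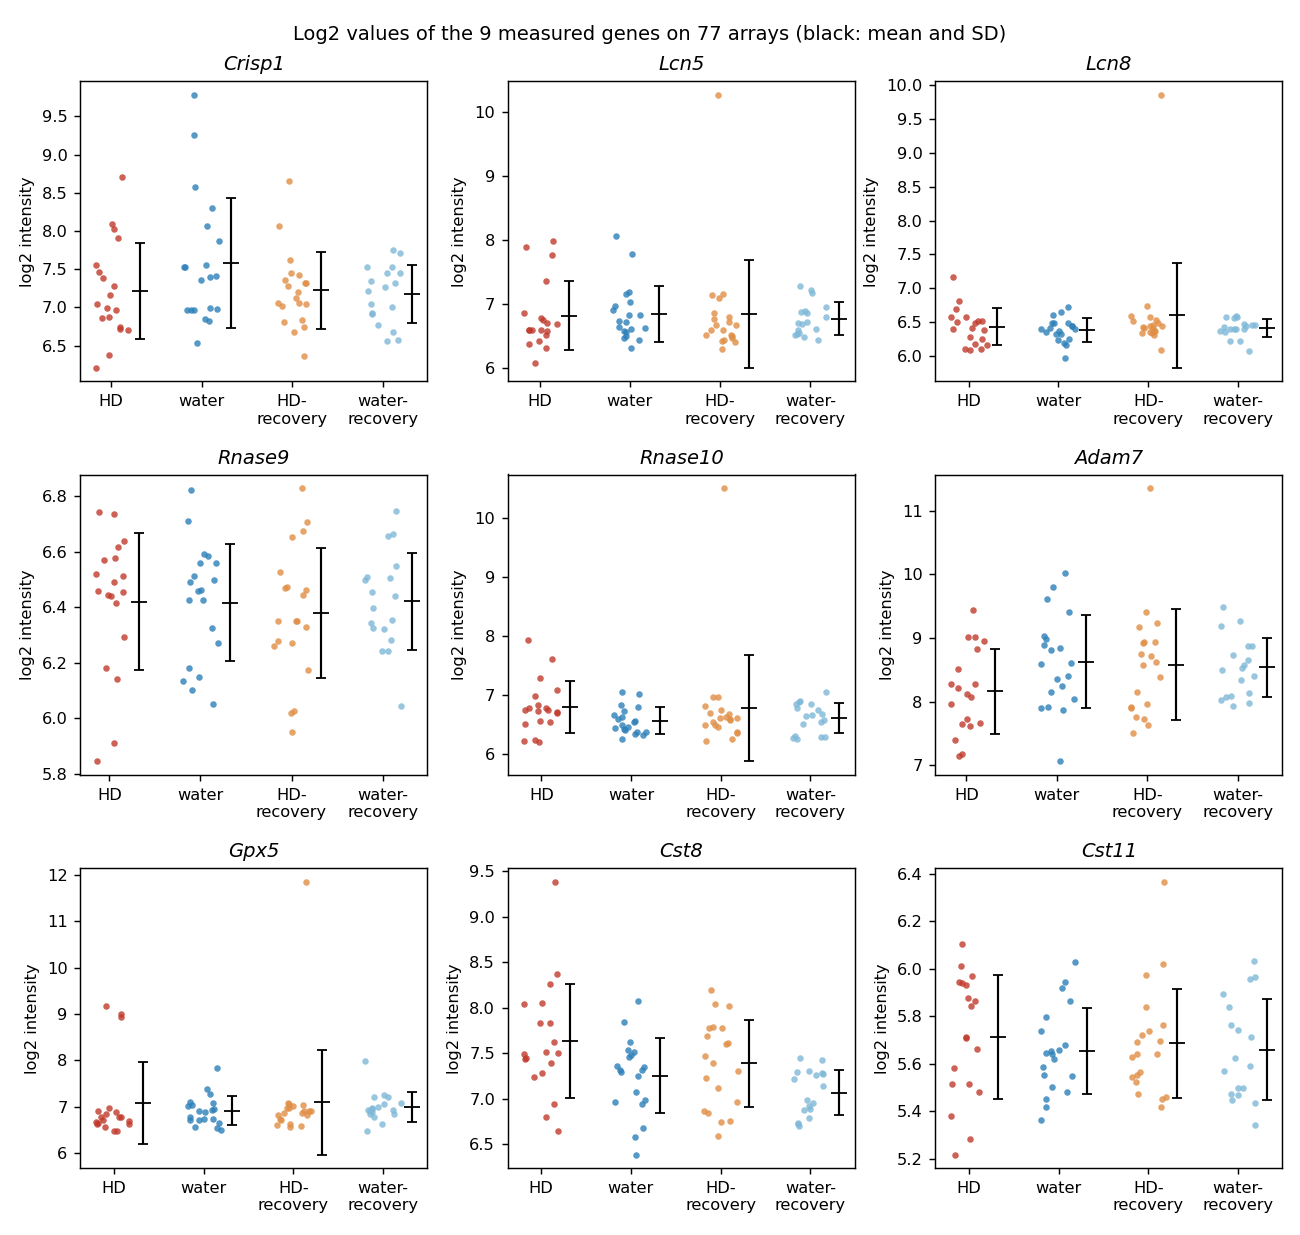
Log2 intensity (y axis) of the 9 measured genes on each array, by group (x axis), with the mean and SD in black. HD-recovery replicate 19 lies far above its group in Gpx5 (11.85), Rnase10 (10.51), Lcn5 (10.28), Lcn8 (9.86) and Adam7 (11.36).

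Gpx5 encodes a secreted glutathione peroxidase that lacks selenocysteine and, in the mouse, guards stored sperm against peroxides. It ranged between 6.47 and 9.18 (median 6.77) in HD arrays, against 6.50 to 7.84 (median 6.90) in water arrays. It ranged between 6.57 and 11.85 (median 6.89) in HD-recovery arrays, against 6.48 to 7.99 (median 6.94) in water-recovery arrays. The groups overlapped almost wholly, and what differed was a few high arrays: HD replicates 8, 4 and 18 stood at 9.18, 9.00 and 8.94, above every water array, while the rest of the HD group stayed near its median. The mean difference was 0.17 between HD and water arrays (SE 0.20, q = 0.97; 0.05 without HD replicate 8) and 0.10 between HD-recovery and water-recovery arrays (SE 0.26, limma q = 1.00). Without HD-recovery replicate 19 the second was −0.15. Differences are given as exposed minus control by label. Most altered probe sets, 133 of 138, were lower in the arrays labelled HD. The study describes most altered transcripts as higher with HD, which is opposite to the direction the labels give, and the groups are called by their labels here. Which is right was not settled, so that every direction between groups, also those after recovery and between times, rests on the labels.

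Rnase10, a secreted relative of pancreatic ribonuclease needed in the mouse for normal passage of sperm into the oviduct, followed the same arrays. It was at 6.21 to 7.94 (median 6.75) in HD arrays and at 6.26 to 7.05 (median 6.52) in water arrays. After recovery it was at 6.22 to 10.51 (median 6.60) in HD-recovery arrays and at 6.25 to 7.06 (median 6.66) in water-recovery arrays. HD replicates 8 and 18 were again the highest of their group (7.94 and 7.61), but here the shift was not theirs alone: 16 of 19 HD arrays lay above the water median. The difference at the end of exposure was 0.24 (SE 0.11, unadjusted p = 0.035, limma q = 0.53). Without the arrays that stood apart it was 0.31 and was called (limma q = 0.016), in a fit that called 8818 of 29214 probe sets. It was 0.16 after recovery (SE 0.21, limma q = 1.00), or −0.03 without HD-recovery replicate 19.

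Lcn8 and Lcn5 are lipocalins, small carriers of lipophilic molecules, and Lcn5 binds retinoic acid in the rat. Lcn8 was at 6.09 to 7.16 (median 6.40) in HD arrays and 5.96 to 6.72 (median 6.39) in water arrays. In HD-recovery arrays it was at 6.09 to 9.86 (median 6.43), against 6.08 to 6.59 (median 6.41) in water-recovery arrays. Apart from HD-recovery replicate 19 and HD replicate 8, all of its values in every group lay between 5.96 and 6.81. Lcn5 was at 6.08 to 8.00 (median 6.60) in HD arrays and 6.32 to 8.07 (median 6.73) in water arrays. It was at 6.29 to 10.28 (median 6.64) in HD-recovery arrays, against 6.44 to 7.28 (median 6.71) in water-recovery arrays. Its high arrays outside recovery were HD replicates 3, 4 and 8 and water replicates 4 and 1, of which HD replicates 4 and 8 were also high in Gpx5 and the others were not. The differences between HD and water arrays were 0.05 for Lcn8 (SE 0.07, limma q = 0.98), or 0.0046 without HD replicate 8, and −0.04 for Lcn5 (SE 0.15, limma q = 0.99).

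Because Gpx5, Rnase10, Lcn8 and Lcn5 were the 4 members that exceeded the rest of their group by the most in the same array, their promoters are shown: the 250 bases before the start of each gene in RefSeq, build GRCr8, 5′ to 3′ on the plus strand, on which all 4 genes lie. Capitals mark matches, on either strand, to the androgen receptor hexamer TGTTCT, the PEA3 motif AGGAAG, the TATA box TATAAA and the CCAAT box CCAAT. PEA3 motifs are known from the mouse Gpx5 promoter.
Gpx5, chr17:48131603-48131852: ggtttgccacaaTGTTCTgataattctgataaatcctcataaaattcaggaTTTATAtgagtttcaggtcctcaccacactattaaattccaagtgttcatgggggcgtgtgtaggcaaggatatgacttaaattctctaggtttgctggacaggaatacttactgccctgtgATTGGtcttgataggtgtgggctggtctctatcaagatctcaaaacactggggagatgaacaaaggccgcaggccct
Rnase10, chr15:26699969-26700218: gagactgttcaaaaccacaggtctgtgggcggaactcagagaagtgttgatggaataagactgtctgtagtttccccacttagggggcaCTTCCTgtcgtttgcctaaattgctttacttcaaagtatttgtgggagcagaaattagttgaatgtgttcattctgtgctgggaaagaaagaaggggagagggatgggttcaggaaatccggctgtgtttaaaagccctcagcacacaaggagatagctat
Lcn8, chr3:28865811-28866060: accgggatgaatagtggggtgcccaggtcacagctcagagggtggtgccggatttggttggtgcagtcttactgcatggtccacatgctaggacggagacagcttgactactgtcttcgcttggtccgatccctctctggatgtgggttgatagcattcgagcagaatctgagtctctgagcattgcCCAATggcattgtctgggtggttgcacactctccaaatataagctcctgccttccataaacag
Lcn5, chr3:28871073-28871322: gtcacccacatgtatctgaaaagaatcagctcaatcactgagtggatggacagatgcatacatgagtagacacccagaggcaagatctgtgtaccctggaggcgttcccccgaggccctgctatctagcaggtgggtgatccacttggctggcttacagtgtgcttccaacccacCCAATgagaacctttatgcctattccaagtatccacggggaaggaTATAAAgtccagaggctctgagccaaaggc
The Gpx5 window held TGTTCT 238 to 233 bases before the start, a reverse TATAAA at 199 to 194 and a reverse CCAAT at 77 to 73. Rnase10 held a reverse AGGAAG at 161 to 156. Lcn8 held CCAAT at 63 to 59, and Lcn5 held CCAAT at 75 to 71 and TATAAA at 30 to 25. None of the motifs overlapped and none was shared by all 4 windows. Over 33469 rat promoters of the same length, TGTTCT was found in 17.5%, AGGAAG in 29.5%, TATAAA in 12.9% and CCAAT in 34.0%, so that single matches are common. A whole androgen response element, searched as an inverted pair of the hexamer 3 bases apart, was in 0.012% of promoters and in no window of the 6 members with an entry, which were these 4, Rnase9 and Cst8.

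The genes lie on 4 chromosomes. Lcn5 and Lcn8 are direct neighbours on chromosome 3. Rnase9 and Rnase10 have 1 pseudogene between them on chromosome 15, which also holds Adam7. Cst8 and Cst11 have 3 genes between them on chromosome 3, Cst12 among them. Gpx5 is on chromosome 17 and Crisp1 on chromosome 9.

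Adam7, a membrane protein of the ADAM family that in the mouse passes from the epithelium to the sperm surface, had the widest interquartile range of the 9 genes in HD, HD-recovery and water-recovery arrays (1.02, 1.02 and 0.73). It was at 7.15 to 9.44 (median 8.12) in HD arrays and 7.06 to 10.01 (median 8.60) in water arrays. In HD-recovery arrays it was at 7.50 to 11.36 (median 8.60), against 7.94 to 9.49 (median 8.51) in water-recovery arrays. Of the HD arrays, 14 of 19 lay below the water median, but none below the lowest water array. The difference was −0.47 (SE 0.21, 95% interval −0.90 to −0.03, unadjusted p = 0.035, limma q = 0.53) at the end of exposure and 0.04 (SE 0.22, limma q = 1.00) after recovery. Without the arrays that stood apart the first was −0.65 and was called (limma q = 0.017), in the fit that called 8818 of 29214 probe sets. The water arrays themselves differed by replicate number, at 8.03 to 10.01 up to replicate 10 and 7.06 to 8.84 above it. The HD arrays were at 7.40 to 9.44 and 7.15 to 9.01. With replicate number above 10 as a covariate the difference at the end of exposure was −0.45 (limma q = 0.41).

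Crisp1, a cysteine-rich protein of the kind that coats sperm, was at 6.21 to 8.71 (median 7.05) in HD arrays and 6.54 to 9.79 (median 7.40) in water arrays. It was at 6.37 to 8.66 (median 7.17) in HD-recovery arrays and 6.56 to 7.76 (median 7.24) in water-recovery arrays. Its range was widest in the water group, whose replicates 4 and 1, at 9.79 and 9.26, exceeded every other array. The difference was −0.37 between HD and water arrays (SE 0.23, limma q = 0.76) and 0.05 after recovery (SE 0.14, limma q = 1.00). Without the arrays that stood apart the first was −0.52 and was called (limma q = 0.044), in the fit that called 8818 of 29214 probe sets. The controls also differed by time, with water-recovery arrays 0.41 below water arrays on average (log2 difference −0.41, SE 0.20, unadjusted p = 0.038, limma q = 0.88).

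Crisp3, which is not among the named genes, was looked at because RefSeq gives Crisp1 and Aeg, the acidic epididymal glycoprotein of the rat, as its older symbols; it was chosen after its values were seen. Crisp3 was at 7.99 to 10.71 (median 9.10) in HD arrays and 7.67 to 11.33 (median 10.06) in water arrays. In the HD group 15 of 19 arrays were under the median of the controls. The difference was −0.67 (SE 0.27, unadjusted p = 0.019, limma q = 0.41), and −0.07 after recovery (SE 0.24, limma q = 1.00). Every water array up to replicate 10 (lowest 10.12) exceeded every water array of a higher number (highest 9.99). The HD arrays were at 7.99 to 10.71 up to replicate 10 and 8.08 to 10.67 above it. The labels do not say what the replicate numbers stand for.

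Cst8, a cystatin-related protein known in the mouse both from the proximal epididymis and from germ cells of the testis, had, of the 9 genes, the largest differences relative to their errors in both HD comparisons, in the same direction. It was at 6.65 to 9.39 (median 7.50) in HD arrays and 6.38 to 8.07 (median 7.32) in water arrays. It was at 6.58 to 8.19 (median 7.43) in HD-recovery arrays, against 6.70 to 7.45 (median 7.06) in water-recovery arrays. Above the median of the controls lay 14 of 19 HD arrays and 14 of 20 HD-recovery arrays, and 10 of these HD-recovery arrays exceeded every water-recovery array. The difference was 0.38 (SE 0.16, 95% interval 0.06 to 0.71, unadjusted p = 0.022, limma q = 0.45) at the end of exposure and 0.32 (SE 0.12, 95% interval 0.07 to 0.57, unadjusted p = 0.012, limma q = 0.91) after recovery. The mean of both HD effects, a contrast added after these values were seen, was 0.35 (SE 0.10, unadjusted p = 0.0011) and did not pass over all probe sets (limma q = 0.11, where 0.349% of probe sets passed). HD replicate 5 had the highest value, 9.39, and without it the difference at the end of exposure was 0.29.

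The level of Cst8 followed the sperm markers. Over 77 arrays, with group means removed, Cst8 and the mean of the 14 sperm and spermatid markers had r = 0.88 and rho = 0.87 (permutation test within groups, adjusted p = 7.4e-05 and 6.7e-05 over 81 relations of the 9 genes with 9 marker lists, a family added after the values were seen). Within groups r was 0.97 in HD, 0.91 in water, 0.90 in HD-recovery and 0.45 in water-recovery arrays, and it was 0.87 without the 2 arrays farthest from the median of the marker mean (HD replicates 5 and 18). The marker list itself had a median difference of 0.24 between HD and water arrays and 0.27 between HD-recovery and water-recovery arrays, against 0.01 and −0.01 over all probe sets. At the end of exposure 1 of the 14 was called, and lower, and after recovery none was (0.472% and 0% of all probe sets called). By unadjusted p, 6 were higher and 4 lower at the end of exposure (3.4% and 4.91% of all probe sets). After recovery 7 were higher (2.86%) and none lower. The part of this list in the differences of Cst8 was not tested. None of the other 8 genes had a positive correlation with the sperm list that passed, and Rnase9 and Cst11 had negative ones (r = −0.39 and −0.35).

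Rnase9, a secreted ribonuclease relative like Rnase10, and Cst11, a cystatin, varied little between arrays, with an SD of 0.17 to 0.26 in every group. Their means over all arrays, 6.41 and 5.68, lay below every array median, so that the small spread does not show a steady level of their RNA. Rnase9 was at 5.85 to 6.74 (median 6.46) in HD arrays, 6.05 to 6.82 (median 6.46) in water arrays, 5.95 to 6.83 (median 6.35) in HD-recovery arrays and 6.05 to 6.75 (median 6.42) in water-recovery arrays. Cst11 was at 5.22 to 6.11 (median 5.71) in HD arrays, 5.36 to 6.03 (median 5.64) in water arrays, 5.42 to 6.37 (median 5.64) in HD-recovery arrays and 5.34 to 6.03 (median 5.61) in water-recovery arrays. The 4 groups overlapped throughout in both genes, and no difference of means came near the spread of the arrays. The differences between HD and water arrays were 0.00 for Rnase9 (95% interval −0.14 to 0.15, limma q = 0.99) and 0.06 for Cst11 (95% interval −0.09 to 0.20, limma q = 0.97).

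**Figure D2:**
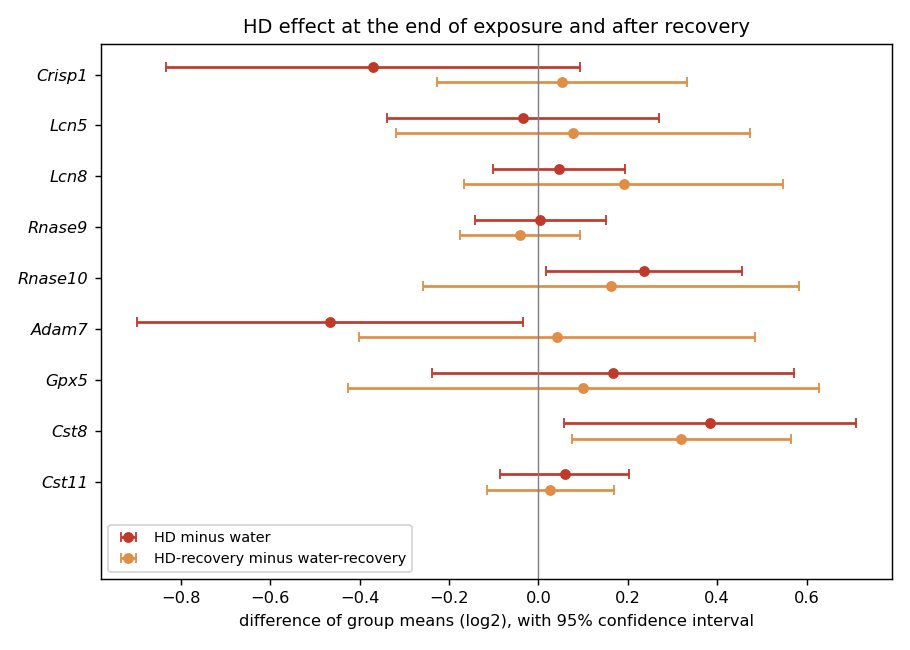
Difference of group means with its 95% confidence interval (log2, x axis) for each gene (y axis), HD minus water in red and HD-recovery minus water-recovery in orange. Cst8 lies above 0 at both times (0.38 and 0.32), Adam7 and Crisp1 lie below 0 at the end of exposure (−0.47 and −0.37), and no difference passed q under 0.05.

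By unadjusted p under 0.05, 3 of the 9 genes differed between HD and water arrays, 2 higher (3.4% of all probe sets) and 1 lower (4.91%), together against 8.3% of all. After recovery 1 did, which was higher (2.86%), against 4.51% of all. The median difference of the 9 genes was 0.05 at the end of exposure and 0.08 after recovery, and over all probe sets 0.01 and −0.01. Single arrays moved it: without HD replicate 8 the first was 0.0046, and without HD-recovery replicate 19 the second was −0.03, with 7 of the 9 genes negative in place of 1. The comparison of HD-recovery with HD arrays called none of the 9 (background 0.154%) and none by unadjusted p (9.55%), the largest difference being 0.42 in Adam7 (SE 0.22, unadjusted p = 0.062, limma q = 0.54). That of water-recovery with water arrays called none (background 0%), and Crisp1 alone by unadjusted p (4.7%). These 2 comparisons also differ in the age of the rats, which cannot be told apart from recovery. Tested directly, the HD effect at the end of exposure and that after recovery did not differ at q under 0.05 in any of the 9 (background 0%) or by unadjusted p (3.38%). The largest such differences were −0.51 in Adam7 (SE 0.31, unadjusted p = 0.11) and −0.42 in Crisp1 (SE 0.28, unadjusted p = 0.13), and their intervals reach 0.12 and 0.13.

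HD-recovery replicate 19, described after its values were seen, carried most of the spread of Gpx5, Rnase10, Lcn5 and Lcn8 in its group. Among 14506 genes ordered by their excess over the median of the other 19 arrays of the group, Gpx5 ranked 1, Rnase10 2, Lcn5 3, Lcn8 5, Adam7 10 and Crisp1 27. Gpx5 was 31.5 times that median, Rnase10 15.1 times, Lcn5 12.8 times, Lcn8 10.8 times, Adam7 6.85 times and Crisp1 2.89 times. Cst11 ranked 453 and was still above every other array of the group, while Cst8 and Rnase9, at ranks 766 and 4743, were not. The SD of Gpx5 in the HD-recovery group was 1.13, the largest of the 9 genes in any group, and without this array the largest of these was 0.88, that of Gpx5 in the HD group.

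The array was high in a limited set of genes. Of all probe sets, 166 (0.568%) exceeded the median of the other arrays by over 1 on the log2 scale and 2667 (9.13%) exceeded every other array of the group. Among those over 1 were Lcn9, a lipocalin of the mouse epididymis, at 6.88 times the median, and Adgrg2, a receptor of the efferent ducts and proximal epididymis, at 5.25 times. Mfge8, a milk fat globule protein that coats sperm in the mouse, was at 9.15 times, and Penk, the enkephalin precursor, at 12.1 times. Of 18 other luminal products of the epididymis, 11 were above every other array, with Lcn9, Mfge8 and Lcn10 far above, while Lcn6 and Spink8 were inside the range of the others and Wfdc2 was just below it. Of 13 leukocyte markers 11 were above every other array by smaller amounts (median excess 0.87), of 15 epithelium markers 6, of 14 sperm markers 1 and of 8 smooth muscle and endothelium markers 0. The list means of this array were the highest of the group for luminal products (8.88), leukocytes (8.91) and 9 regulators of epididymal segments and androgen action (6.96). For epithelium markers the highest mean was in replicate 20 (7.73). Replicate 19 was also not the highest for sperm, erythroid, fibroblast, smooth muscle and endothelium or Sertoli cell markers. The part of other cells in this array was not tested.

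**Figure D3:**
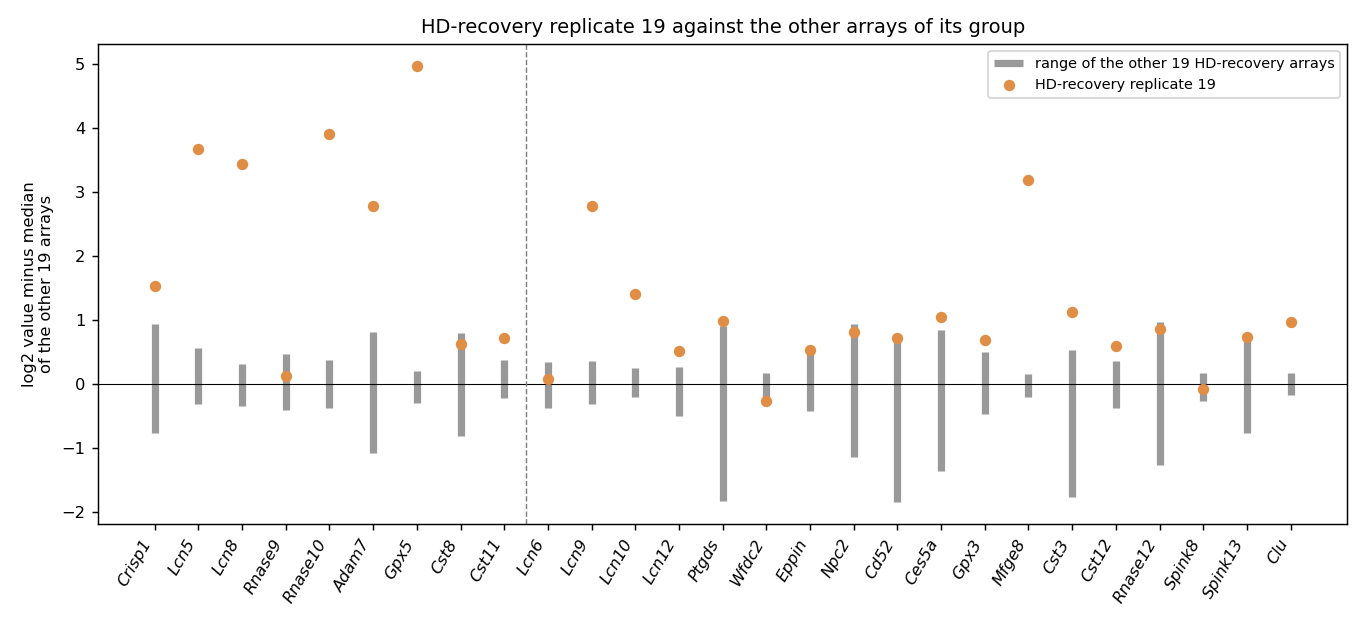
Log2 value of HD-recovery replicate 19 (orange) and the range of the other 19 HD-recovery arrays (grey), both minus the median of those 19 (y axis), for the 9 genes (left of the dashed line) and 18 other luminal products (right of it). Gpx5 lies 4.98 above that median, Rnase10 3.91, Lcn5 3.67 and Lcn8 3.43, while Rnase9 and Lcn6 lie within the range of the other arrays.

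The genes fell into sets that were high in the same arrays. Of 36 pairs, 16 passed in the correlation of deviations from group means over 77 arrays (permutation within groups, Benjamini-Hochberg adjusted p under 0.05 over the 36 pairs, 15 positive and 1 negative), and 14 passed without HD-recovery replicate 19, 10 positive and 4 negative. By Spearman's rho 15 passed, 11 positive and 4 negative. Rnase10 and Gpx5 had r = 0.91 and rho = 0.63 (adjusted p = 5.1e-05 and 9e-05), and r = 0.76 without that array. Within groups their r was 0.85 in HD, 0.70 in water, 0.98 in HD-recovery (0.45 without replicate 19) and 0.71 in water-recovery arrays. Lcn8 correlated with both, at r = 0.90 with Rnase10 (rho = 0.54) and 0.85 with Gpx5 (rho = 0.42), which became 0.62 and 0.60 without that array (adjusted p = 6e-05 for each). Within groups its r with Gpx5 was 0.79 in HD, 0.27 in water, 0.37 in water-recovery and 0.15 in HD-recovery arrays without replicate 19. With Rnase10 it was 0.73, 0.49, 0.59 and 0.44 in the same order. In these 3 genes the high arrays were thus largely the same, HD replicates 8 and 18 as well as HD-recovery replicate 19.

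Crisp1 and Adam7 formed another pair, at r = 0.79 and rho = 0.79 (adjusted p = 5.1e-05 and 9e-05), and r = 0.79 without water replicates 4 and 1, the 2 arrays farthest from the median of Crisp1. It held in each group, at 0.73 in HD, 0.84 in water, 0.91 in HD-recovery and 0.68 in water-recovery arrays. Neither Crisp1 nor Adam7 had a positive correlation with Gpx5, Rnase10 or Lcn8 that passed without HD-recovery replicate 19 (r between −0.12 and 0.15). Water replicate 4 shows the contrast: it held the highest Crisp1, Lcn5 and Adam7 of its group, at 9.79, 8.07 and 10.01, but Gpx5 at 6.55, below the group median. HD replicate 3 likewise held the highest Crisp1 and Lcn5 of its group and the lowest Gpx5 (6.47).

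Lcn5 stood between the sets. It correlated with Crisp1 at r = 0.63 (rho = 0.48, and r = 0.64 without HD-recovery replicate 19) and with Adam7 at r = 0.67 (rho = 0.51, and r = 0.55). Its correlation with its chromosomal neighbour Lcn8 was r = 0.72, but rho was 0.18 (adjusted p = 0.27), and without that array r was 0.22 (adjusted p = 0.20). That with Rnase10 fell likewise, with r = 0.65 over all arrays and 0.13 without it (adjusted p = 0.48). Both relations rested on HD-recovery replicate 19. With Gpx5, r was 0.71, and 0.36 without it (adjusted p = 0.038), while rho was 0.13 (adjusted p = 0.42).

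Cst11 went with Rnase10 (r = 0.55, adjusted p = 5.1e-05, and r = 0.48 without HD-recovery replicate 19). Within groups r was 0.45 in HD, 0.59 in water, 0.67 in water-recovery and 0.24 in HD-recovery arrays without that array. With Rnase9, Cst11 had r = 0.40 (adjusted p = 0.0021), 0.42 without that array and 0.27 after centring of array medians (adjusted p = 0.047). It also passed with Lcn8 (r = 0.47, and 0.34 without that array) and Gpx5 (r = 0.43, and 0.25 without it, adjusted p = 0.13). Without that array Cst11 was negative with Adam7 (r = −0.39, adjusted p = 0.002) and Crisp1 (r = −0.30, adjusted p = 0.026). Rnase9 and Adam7 were the negative pair that passed over all arrays (r = −0.30, rho = −0.29, adjusted p = 0.026 and 0.037), and after centring of array medians it did not (r = −0.26, adjusted p = 0.072). Cst8 had no correlation with another member that passed over all arrays, and a negative one with Cst11 without that array (r = −0.36, adjusted p = 0.0075). The means of Cst11, Rnase9 and Lcn8 lay below every array median and that of Rnase10 among the medians. Their relations may therefore hold little signal of the genes, which was not tested.

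**Figure D4:**
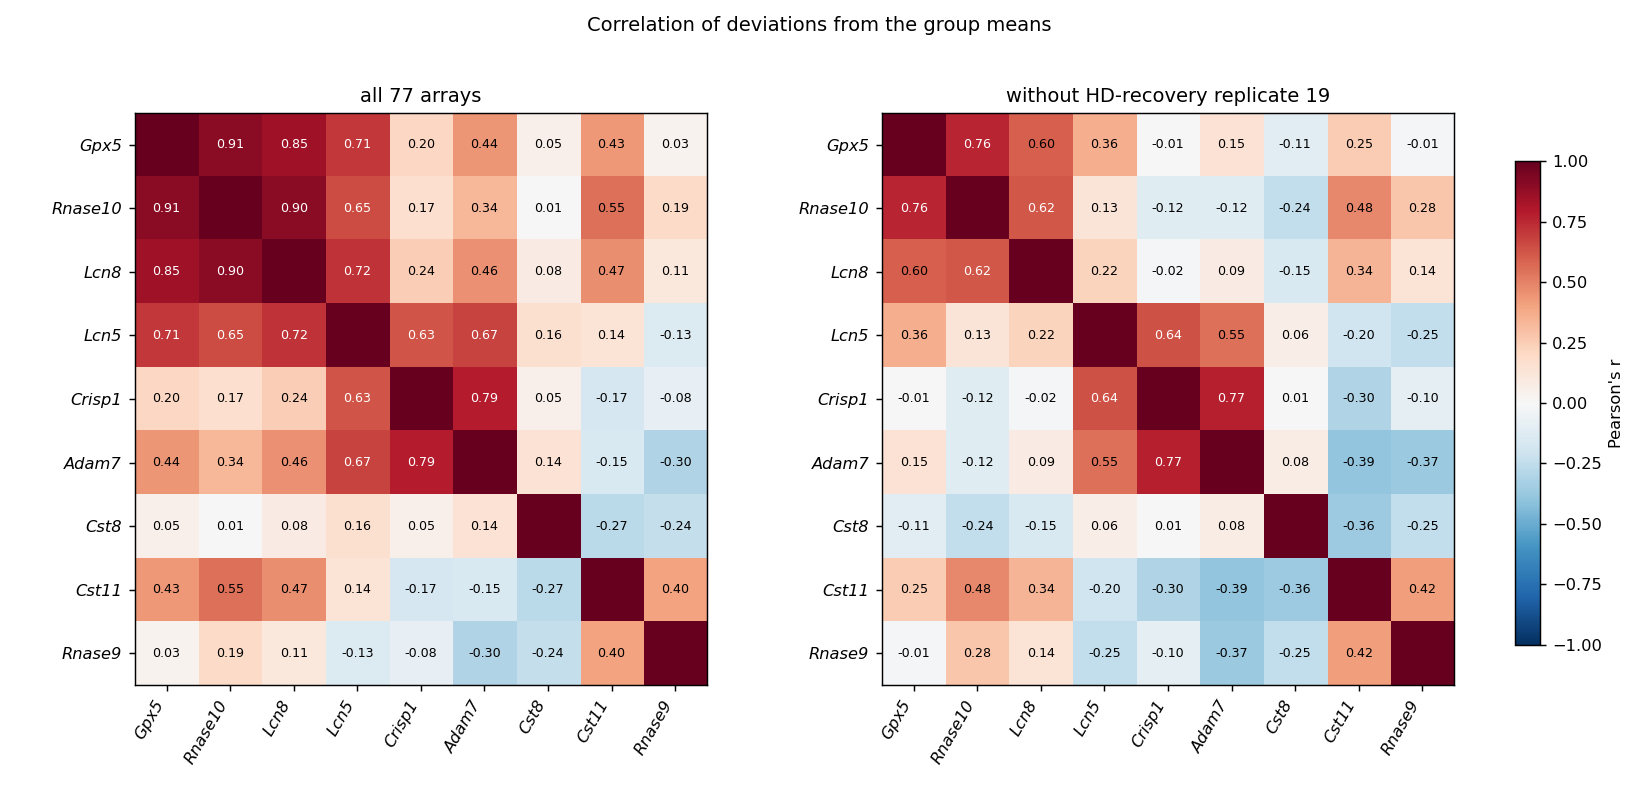
Pearson's r (colour scale and cell values) between the deviations of each pair of genes from their group means, over all 77 arrays (left) and without HD-recovery replicate 19 (right). Gpx5, Rnase10 and Lcn8 form a block (0.85 to 0.91, and 0.60 to 0.76 without the array), Crisp1 and Adam7 a pair (0.79 and 0.77), and Cst8 belongs to neither.

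**Figure D5:**
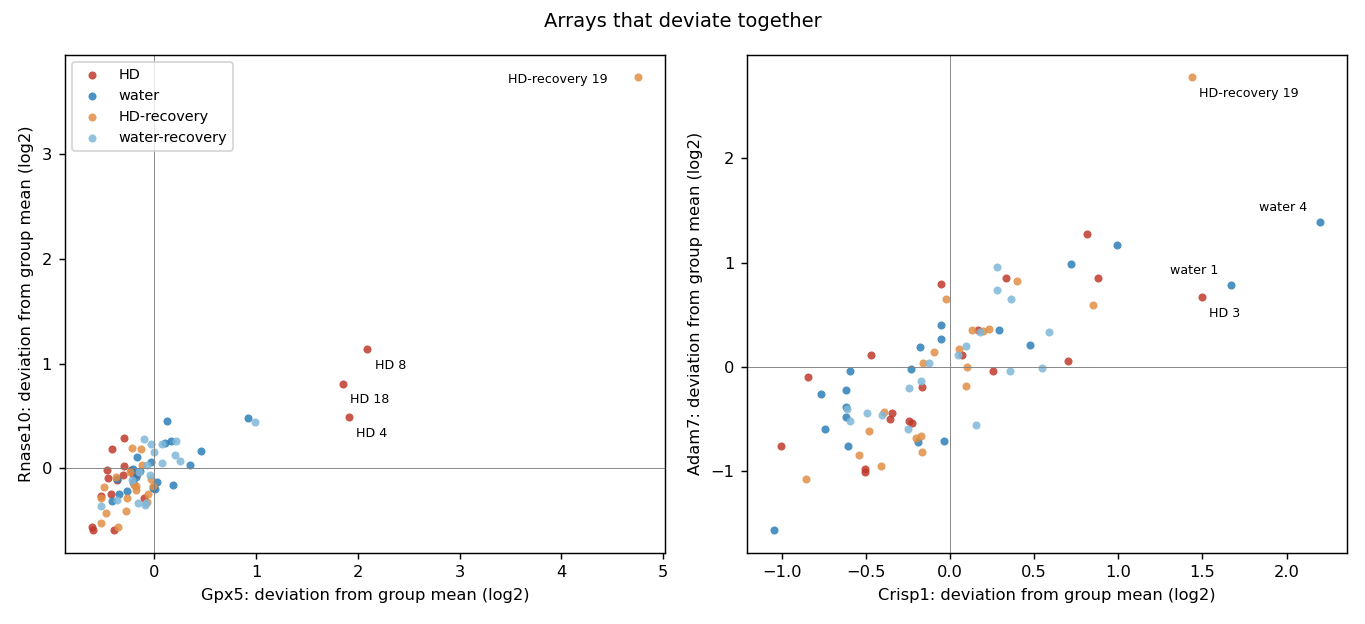
Deviation from the group mean (log2) of Rnase10 against Gpx5 (left) and of Adam7 against Crisp1 (right), 1 point for each array, coloured by group. On the left a few named arrays lie far out in both genes (HD-recovery 19, HD 8, HD 18 and HD 4). Without them r was 0.70 in water and 0.71 in water-recovery arrays, where water replicate 5 and water-recovery replicate 17 were the highest in both genes. It was 0.45 in HD-recovery arrays without replicate 19. On the right r is 0.79 over all arrays and 0.68 to 0.91 within groups.

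The genes most like each member, by r over the same 77 arrays among 14497 genes other than the members, differed between these sets. For Gpx5, Rnase10 and Lcn8 they came from the same small group: Ly6g5b, of the Ly6 family, was of these the nearest to all 3 (r = 0.84, 0.89 and 0.90), and Rgsl2h, Lcn9 and Spag11b filled the other places. Without HD-recovery replicate 19 none of these 14497 genes had r over 0.7 with Gpx5, Rnase10 or Lcn8. Nearest to Lcn5 were Gk, Defb41 and Ly6g5b (r = 0.67, 0.66 and 0.65), and without HD-recovery replicate 19 Man2b1, Arhgap8 and Tpm1 (r = 0.64, 0.63 and 0.60). For Crisp1 they were Man2b1, a lysosomal mannosidase, Defb26, a defensin, and Slc17a5, a lysosomal sialic acid transporter (r = 0.89, 0.85 and 0.80). Adam7 had 213 genes with r over 0.7, led by Sod3, the extracellular superoxide dismutase, Prom1 and Glb1, a lysosomal galactosidase (r = 0.88, 0.87 and 0.87).

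Cst8 had 323 genes with r over 0.7, led by Stat4, Atp1a4, the sodium pump subunit of sperm, and Lrrc18 (r = 0.91, 0.91 and 0.91). Nearest to Rnase9 were Ctsj, Sgcd and Htr7 (r = 0.71 each), and to Cst11 Adam28, Ly6g5c and Ggt5 (r = 0.68, 0.63 and 0.62). Crisp3 was followed by 1249 genes, led by Ces5a, the carboxylesterase of epididymal fluid, at r = 0.98.

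The other luminal products of the epididymis, a list of 23 genes of which 18 had a probe set, were set beside the 9. Between HD and water arrays 1 was higher, Clu, which is also made by Sertoli cells (1.11, SE 0.25, limma q = 0.022), and none was lower. By unadjusted p, 6 were lower, where 4.91% of all probe sets were, led by Ptgds, the lipocalin-type prostaglandin D synthase (−0.81, SE 0.21, limma q = 0.069), and Gpx3, a secreted relative of Gpx5 (−0.37, SE 0.09, limma q = 0.053). The list's median was −0.15. Ptgds was higher in HD-recovery than in HD arrays (0.94, SE 0.22, limma q = 0.041) and Clu lower (log2 difference −1.12, SE 0.19, limma q = 0.0014). After recovery none of the 18 differed between HD-recovery and water-recovery arrays.

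Of the 9 genes, Adam7 had the highest correlation with these products. The mean of the list had r = 0.85 and rho = 0.82 with Adam7 (adjusted p = 7.4e-05 and 6.7e-05), 0.61 with Lcn5 and 0.59 with Crisp1, and 0.83 with Adam7 without HD-recovery replicate 19. Gpx5 and Rnase10 had r = 0.29 and 0.13 with it, which did not pass, while rho was −0.24 and −0.41 (permutation test, adjusted p = 0.049 and 0.00066). Without HD-recovery replicate 19, r was 0.0031 for Gpx5 (adjusted p = 0.98) and −0.37 for Rnase10 (adjusted p = 0.0071). Rnase9 and Cst11 had negative correlations with the list that passed over all arrays (r = −0.54 and −0.36, adjusted p = 7.4e-05 and 0.009). Adam7 also followed the epithelium markers (r = 0.67) and the leukocyte markers (r = 0.58), each at adjusted p = 7.4e-05. Crisp1 (r = 0.54 and 0.36) and Lcn5 (r = 0.49 and 0.45) passed with both lists too. With the regulators of epididymal segments and androgen action Adam7, Lcn5 and Crisp1 also passed (r = 0.56, 0.54 and 0.40).

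Markers of some other cells moved with the HD comparison, where 0.472% of all probe sets were called and 4.91% were lower by unadjusted p. Of 13 leukocyte markers, 4 were lower in HD than in water arrays (limma) and 12 had a negative difference, with a median of −0.36. Their mean level was 7.28 to 8.52 (median 7.53) in HD arrays, against 7.47 to 8.54 (median 8.09) in water arrays. Of 9 fibroblast markers 1 was lower, Dcn (−1.09), and of 15 epithelium markers none passed, with a median of −0.02 and a mean level of 7.09 to 8.00 in HD arrays and 6.99 to 7.65 in water arrays. Of 5 erythroid markers all had a negative difference (median −0.25), 4 were lower by unadjusted p and 1 was called, Ahsp (−0.25, limma q = 0.027), while Hbb had −0.85 (limma q = 0.060). Their mean level was 6.74 to 7.77 in HD arrays, against 7.00 to 7.93 in water arrays. In HD-recovery arrays Ahsp was at 4.78 to 5.59, below every array median, so that its values may hold little signal of the gene. Of 8 smooth muscle and endothelium markers none passed (median −0.0033), and of 8 Sertoli cell markers only Clu did, which was higher (median of the list 0.05). Of 9 regulators of epididymal segments and of androgen action none passed in either HD comparison. The part of these cells in the lower means of Adam7 and Crisp1 in HD arrays was not tested.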

How the data were processed

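The authors deposited 1 table of log2 intensities, 1 value for each probe set and array, normalized by steps not given in the sources used here; the log2 scale was taken from the range of the values. Gene names came from the platform annotation, and older symbols, neighbours and promoters from RefSeq (GRCr8). Following the methods, HD was compared with water and HD-recovery with water-recovery by limma 3.58.1 in R 4.3.3, two-sided, with Storey's q over 29214 probe sets and 0.05 as threshold. Other contrasts used 1 fit of all 4 groups. The procedure was tested on simulated data. Correlations used deviations from group means and 1e+05 permutations within groups (Python 3.11.15, NumPy 2.4.6). The number of arrays, not of reads, limits the precision. Genes named beyond the members were the 3 most correlated with each, list genes past the threshold, the ends of each list's range, and genes said to be chosen after their values were seen, among them those high in HD-recovery replicate 19. Members and lists were chosen with earlier results of these data known. Alternatives covered array scaling, array weights, arrays that stood apart (median correlation over 3 median absolute deviations below that of the group), a filter on dim probe sets, single arrays and replicate numbers.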

Additional observations from a re-analysis of the deposited data

How the results depend on the processing

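The count of altered probe sets between HD and water arrays was 138, and became 63 with array medians centred, 352 with quantile normalization, 5178 with array weights, 8818 without the arrays that stood apart, 222 over the brighter probe sets only and 221 with all 4 groups in 1 fit. It was 76 (without water replicate 10) to 376 (without HD replicate 14) when each array was left out. None of the 9 genes was called in any of these 39 fits or the 38 of the recovery comparison, which called 0 probe sets each. The fit over the brighter probe sets held, of the 9, only Crisp1, Lcn5, Adam7, Gpx5 and Cst8. With array weights 4 of the 9 were called between HD and water arrays (Crisp1 −0.54, Rnase10 0.31, Adam7 −0.63, Cst8 0.33), and without the arrays that stood apart 3 (Crisp1 −0.52, Rnase10 0.31 and Adam7 −0.65). After recovery, array weights called 527 probe sets and no member, and leaving out those arrays called 3834 and 1 member (Cst8, 0.43, limma q = 0.015). HD-recovery against HD had 45 calls, and 16 with medians centred, 120 with quantile normalization, 13211 with array weights, 16765 without the arrays that stood apart, 84 over brighter probe sets and 17 without HD-recovery replicate 19. With array weights, and without the arrays that stood apart, it called 3 members, Rnase9 (−0.17 and −0.18), Adam7 (0.56 and 0.71) and Cst11 (−0.16 and −0.15). The difference of HD effects had 0 calls, 9833 with array weights (3 members: Crisp1, Adam7 and Cst11) and 16591 without those arrays (4 members: Crisp1 −0.61, Rnase9 0.20, Adam7 −0.83 and Cst11 0.18). The causes were not tested.

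Values near 0 changed sign. With quantile normalization Adam7 was −0.017 after recovery, and between water-recovery and water arrays Rnase9 was −0.0047 and Cst11 −0.014. With array weights Gpx5 was −0.083 and Cst11 −0.040 after recovery, Gpx5 was −0.19 between HD-recovery and HD arrays, Rnase9 was −0.0055 between water-recovery and water arrays, and the difference of HD effects was 0.0081 for Lcn8 and −0.027 for Cst8. Without the arrays that stood apart Cst11 was −0.044 after recovery, Cst8 was 0.011 between HD-recovery and HD arrays, and its difference of HD effects was −0.15. Leaving out single arrays gave HD minus water −0.10 to 0.029 for Lcn5 and −0.015 to 0.036 for Rnase9. After recovery it gave −0.024 to 0.097 for Crisp1, −0.10 to 0.11 for Lcn5, −0.033 to 0.19 for Rnase10, −0.10 to 0.098 for Adam7, −0.15 to 0.16 for Gpx5 and −0.0093 to 0.049 for Cst11, the lowest each time without HD-recovery replicate 19. Without that array (chosen after seeing the data) HD-recovery minus HD was −0.067 for Crisp1, −0.15 for Lcn5 and −0.24 for Gpx5, the difference of HD effects was 0.068 for Lcn5 and 0.027 for Lcn8, and the largest SD was 0.88 in place of 1.13.

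Arrays of the same replicate number were not treated as pairs, and whether the numbers pair them was not tested. Correlations of same-numbered arrays were −0.58 to 0.65 (median 0.03, 8 over 0.1, 2 of 19 best with their own number) for HD and water. After recovery they were −0.41 to 0.64 (median 0.04, 8 over 0.1, 4 of 18). Water arrays differed by replicate number in Adam7 and Crisp3, as given above. With a replicate block 156 probe sets were called between HD and water arrays and 0 after recovery, and no member. Each member had 1 probe set, so that a mean over several gave no other value. Of 331 values of single members under these settings, single arrays aside, 298 kept direction and side of the threshold.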
